A study of Mus musculus with 15 samples.

Results

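Inhib_3 is one of the 12 inhibitory neuron clusters that the authors assigned to single cells of the mouse prefrontal cortex (PFC). The cells described here are those carrying that name in the deposited table of cells. There were 147 of them among 35360 retained cells, 135 from adult mice and 12 from young mice. The 12 inhibitory clusters together held 1191 adult and 962 young cells.

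The mice were C57BL/6N males. The adults, called P60, entered the study at 8 to 10 weeks of age and self-administered cocaine or saline intravenously. They were taken during maintenance, 48 h into withdrawal or 15 days into withdrawal, with 2 libraries for each of these 6 groups and 2 mice pooled in each library. The 3 P21 libraries came from mice of 3 weeks with no self-administration phase, and the methods give 4 mice for them in all and pools of 2 mice. The 3 P21 libraries therefore cannot all be separate pools of 2, and since the tests below count them as 3 samples, their p-values may be too small. The P21 cells were not clustered alone but were named from their correlation with the P60 clusters, so a P21 Inhib_3 cell is one whose profile resembled the adult cluster. The title and source name of each sample give PFC, whereas the tissue field of the labels gives NAc. Libraries are numbered 1 to 12 in the order of their labels for P60: cocaine in libraries 1, 4, 6, 8, 9 and 10, saline in libraries 2, 3, 5, 7, 11 and 12; maintenance in 1 to 4, 48 h in 5 to 8, 15 days in 9 to 12.

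Cortical inhibitory neurons arise mainly from the medial and caudal ganglionic eminences. The medial eminence gives the somatostatin (Sst) and parvalbumin (Pvalb) interneurons, and the caudal eminence gives Vip and many Cck interneurons. Meis2 and Pbx3, the genes by which the study described Inhib_3, encode homeobox transcription factors of the TALE class, which bind DNA as pairs of MEIS and PBX proteins. Meis2 is best known among inhibitory neurons from derivatives of the lateral ganglionic eminence, which include striatal projection neurons and interneurons of the olfactory bulb. The study chose both markers on these same libraries, so their levels here describe the cluster and are not independent evidence for it. In tissue, the study detected rare Pbx3-positive neurons by fluorescence in situ hybridization. It regarded Pbx3 as the more selective marker, since Meis2 also appeared in some non-inhibitory neurons. For the cluster it proposes a likely origin outside the medial eminence, in the caudal eminence, the preoptic area or both.

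The cells were spread unevenly over the libraries. Library 8, one of the libraries from cocaine mice at 48 h of withdrawal, held 58 of the 135 P60 Inhib_3 cells, which is 43.0% (exact Clopper-Pearson 95% interval 34.5 to 51.8; all intervals here cover counting error only). Library 12 held 33, libraries 9 and 10 held 11 each, library 11 held 9, and the other 7 P60 libraries held 0 to 4. In none of the other 11 inhibitory clusters did library 8 hold more than 11.4% of the P60 cells, and the largest share of any single library in those clusters was 29.5%. As a share of all inhibitory neurons of the library, Inhib_3 made up 58 of 152 in library 8 (38.2%, interval 30.4 to 46.4) and 33 of 144 in library 12 (22.9%, interval 16.3 to 30.7). The remaining P60 libraries ranged from 0 of 34 in library 1 (interval up to 10.3%, and 8.82% for a floor of 3 counts) to 2 of 19 in library 2 (10.5%). Library 6, from the same treatment and time as library 8, had 1 of 31 inhibitory cells in the cluster (3.23%). The P21 libraries had 8 of 290, 1 of 301 and 3 of 371 (2.76%, 0.332% and 0.809%). Library 8 thus stood apart from the libraries of its own group, and the levels below are given with and without it. No test was made of these shares between groups, since genes that define the cluster differed between the libraries.

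**Figure D1:**
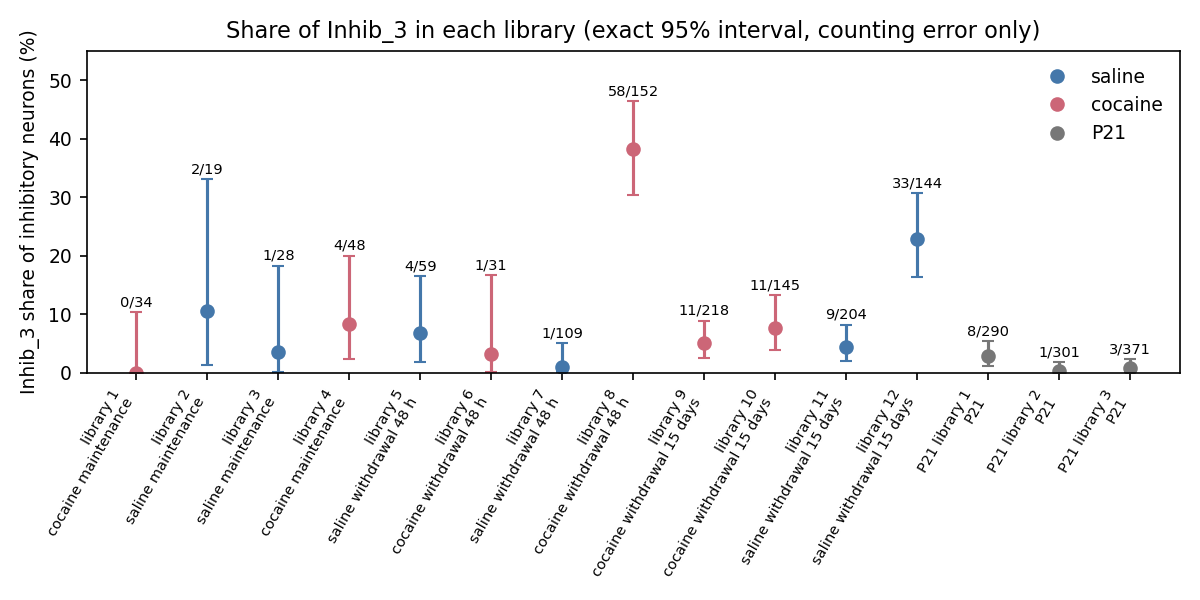
Inhib_3 cells as a percentage of all inhibitory neurons (vertical axis) in each P60 and P21 library (horizontal axis), with exact 95% intervals. Library 8 lies at 38.2% and library 12 at 22.9%, while the other P60 libraries lie between 0 and 10.5% and the P21 libraries between 0.332 and 2.76%.

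Pooled over the P60 libraries, the cells were shallow compared with other inhibitory neurons. The median was 4668 UMIs (unique molecular identifiers, each counting 1 captured transcript) in P60 Inhib_3 and 8203.5 in the other P60 inhibitory neurons. Within library 8 it was 3948 UMIs in Inhib_3 and 8793 in the other inhibitory cells, and the 58 cells had 1516 to 4391 detected genes. The 77 P60 Inhib_3 cells of the other libraries had 1616 to 6632 detected genes. Library 12 had a median of 4520 UMIs, libraries 9, 10 and 11 had 10682, 8829 and 9144, and the P21 cells had 3600.5. The other inhibitory cells had 7438 in library 12 and 8916, 8416 and 8002 in libraries 9, 10 and 11. In libraries 9, 10 and 11 the Inhib_3 cells were thus not the shallower ones. No cell barcode occurred more than once within Inhib_3, and 2 of its barcodes also occurred in another library. The deposited table also gives each cell a broad class, and here 17 of the 147 cells were not classed as inhibitory: 15 were excitatory, 1 an astrocyte and 1 endothelial. Of these 17, 7 were among the 33 cells of library 12 and 2 among the 58 of library 8. In the other inhibitory clusters, 0 to 9 cells had another class.

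Meis2 (chromosome 2, 115688800 to 115891575, minus strand, mm9) separated Inhib_3 from the other clusters when all P60 libraries were pooled. Its level, in counts per 1000000 UMIs (CPM) of genes other than mitochondrial and ribosomal protein genes, was 594 in Inhib_3 (interval 542 to 649) and 72.3 in Inhib_8, the next cluster. Without library 8, Meis2 was at 60.1 CPM in Inhib_3 (interval 41.8 to 83.5) and at 79.2 in Inhib_8 (interval 54.5 to 111), so that Inhib_3 was the second of 12 and its interval overlapped that of the first. In library 8 the level was 1952 CPM, from 447 UMIs. It was 48.1 CPM in library 9, 111 in library 10, 79.2 in library 11 and 68.8 in library 12, from 6 to 10 UMIs each. The mean of the 4 libraries with at least 10 cells (8, 9, 10 and 12) was 545 ± 938 CPM (SD, n = 4), a spread larger than the mean. In P21 Inhib_3 the level was 237 CPM (interval 126 to 406), resting on 13 UMIs in 4 of 12 cells, and the next P21 cluster was Inhib_4 at 24.9.

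Pbx3 (chromosome 2, 34026977 to 34228660, minus strand, mm9) was less tied to library 8. Its level was 106 CPM in P60 Inhib_3 (interval 84.8 to 131) and 89.2 in Inhib_4, a cluster rich in Vip (interval 62.5 to 123). These intervals overlapped. Without library 8 the values were 79.0 CPM in Inhib_3 and 90.1 in Inhib_4. By library, Pbx3 was at 175 CPM in library 8, 75.5 in library 9, 89.1 in library 10, 79.2 in library 11 and 34.4 in library 12. In P21 cells it was at 146 CPM in Inhib_3 and 99.7 in Inhib_4. Rasl11b, a small GTPase of the Ras family also listed by the study for this cluster, was at 677 CPM in library 8, at 11.1 to 96.3 in libraries 9 to 12 and at 0 in the P21 cells.

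**Figure D2:**
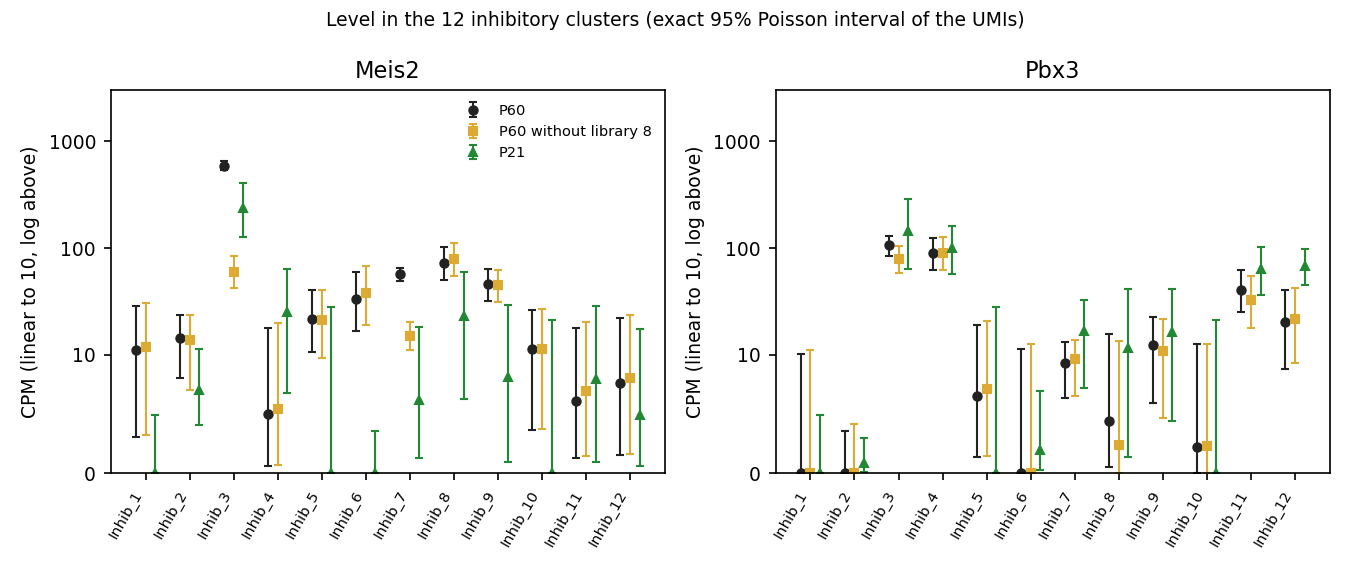
Level of Meis2 and Pbx3 in the 12 inhibitory clusters, in CPM (linear to 10, log above) with exact 95% Poisson intervals of the UMIs, pooled over all P60 libraries, over the P60 libraries without library 8, and over P21. Meis2 in Inhib_3 drops from 594 to 60.1 CPM when library 8 is left out, whereas Pbx3 goes from 106 to 79.0.

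Cell by cell, at least 1 Meis2 UMI was found in 56 of the 58 library 8 cells (96.6%), in 16 of the 77 other P60 cells (20.8%) and in 4 of the 12 P21 cells. After each cell was thinned to 2000 UMIs the shares were 91.4% in library 8 and 13.0% in the other P60 libraries. Among endothelial cells of library 8, 3.16% had a Meis2 UMI, and 1 of 150 sampled cells (0.667%) after thinning. The part of free RNA in the shares given here was not tested. Excitatory neurons of the same library also carried Meis2, in 75.9% of cells, and in 32.7% after thinning. Of the 62 Inhib_3 cells with at least 3 Meis2 UMIs, 53 came from library 8. For Pbx3 the shares were 41.4% in library 8 and 28.6% in the other P60 libraries (36.2% and 9.09% after thinning), with 3.56% in library 8 endothelial cells and 1.97% in its excitatory neurons. At least 1 UMI of Meis2 or Pbx3 was found in 57 of the 58 library 8 cells and in 35 of the 77 other P60 cells. The markers of the label were thus present in the library 8 cells, and most of the other P60 cells had a UMI of neither. Among the 92 P60 cells with such a UMI, library 8 supplied 62.0%.

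The library 8 cells expressed a set of genes that was absent or low in the Inhib_3 cells of the other libraries. Trh, the precursor of thyrotropin-releasing hormone (chromosome 6, 92192055 to 92194644, minus strand, mm9), was at 1398 CPM in library 8 with 320 UMIs and at 0 in libraries 9, 10, 11 and 12. Set against a floor of 3 UMIs in each of those libraries, this was at least 35.3-fold higher. Th, tyrosine hydroxylase, the rate-limiting enzyme of dopamine synthesis, was at 437 CPM against 0, 0, 0 and 13.8. No other library overlapped library 8 in either gene. Gpsm1, a modulator of G protein signalling, was at 729 CPM against at most 26.4 in libraries 9 to 12. Pcp4, a calmodulin-binding protein (chromosome 16, 96689213 to 96747400, plus strand, mm9; its annotation overlaps 1 other gene), was at 7542 CPM against 893, 1081, 1505 and 1019. Its relative Pcp4l1 was at 1791 CPM against 66.8 to 290.4. Penk, the enkephalin precursor, was at 310.1 CPM against 0 to 66.0, and Gal, the galanin precursor, at 236 CPM against 0 in all 4. Of the 20 genes with the largest ratio of library 8 to the highest of libraries 9, 10 and 12, the others were Meis2, Rasl11b, Crhbp, Stxbp6, Kank3, Pacsin2, Chrm2, Ptpro, Sall3, Ano3, Pvalb, 4930523C07Rik and Arc. Crhbp, the binding protein of corticotropin-releasing hormone, was 13.5-fold above those 3 libraries but at 251 CPM in library 11, close to the 279.5 of library 8. Pvalb was among the 20 through 1 cell that held all 30 UMIs. In addition, 3 of these genes were common in library 8 endothelial cells: Pcp4l1 in 95.3% of them, Kank3 in 68.8% and 4930523C07Rik in 47.0%. The part of vascular RNA in these 3 levels was not tested. Levels of endothelial marker transcripts in the library 8 Inhib_3 cells are given below.

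**Figure D3:**
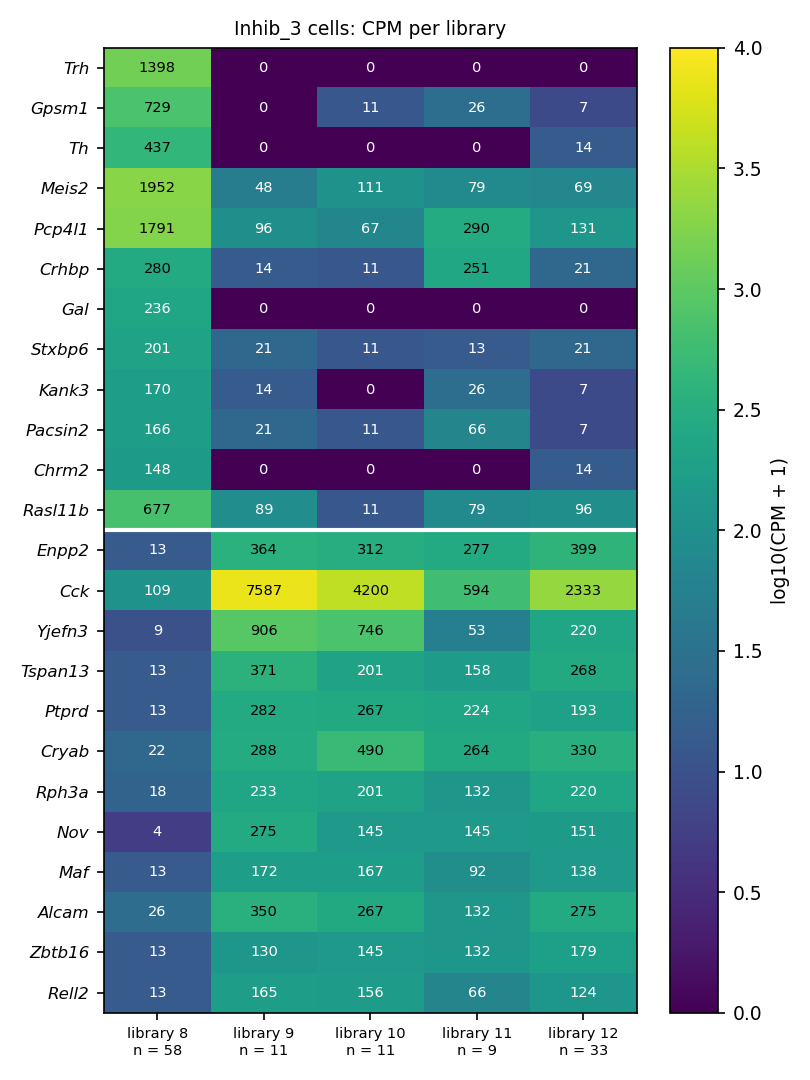
Heat map of levels in the Inhib_3 cells of libraries 8 to 12 (columns), with the CPM printed in each field and coloured by log10(CPM + 1). The upper 12 rows are the genes most above in library 8 and the lower 12 those most below. Trh is at 1398 CPM in library 8 and 0 in the other 4 libraries, whereas Cck is at 109 CPM in library 8 and between 594 and 7587 in the others.

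Other genes were low in library 8. Cck, the cholecystokinin precursor (chromosome 9, 121398943 to 121404807, minus strand, mm9), was at 109 CPM in library 8 and at 7587, 4200.2, 594 and 2333 in libraries 9 to 12. This was 21.4-fold below the lowest of libraries 9, 10 and 12. Library 11, left out of that ratio, had the lowest level of the 4 at 594 CPM, so the fold against it is smaller. Enpp2, the enzyme autotaxin, was at 13.1 CPM against 364, 312, 277 and 399, which was 23.8-fold below the lowest of libraries 9, 10 and 12. Nov, a secreted matricellular protein (chromosome 15, 54577257 to 54585594, plus strand, mm9), was at 4.37 CPM from 1 UMI, against 275, 145, 145 and 151 CPM. The transcription factors Maf and Zbtb16 were each at 13.1 CPM, against 92.4 to 172 and 130.5 to 179. Some of these genes were also lower in the other inhibitory neurons of library 8 than in those of the other P60 libraries. Cck was at 710.2 against 1887 CPM there and Nov at 17.2 against 35.9. Enpp2 (57.7 against 53.7), Maf (163 against 165) and Zbtb16 (130.2 against 139.8) differed little. Over the 5196 genes with at least 20 UMIs, 122 (2.35%) were more than 2-fold above the highest of libraries 9 to 12 and 305 (5.87%) more than 2-fold below the lowest, and the median log2 difference was -0.13. These are single libraries, and no test was made of library 8 against them.

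Among the gene groups used here, the one for the lateral eminence and olfactory lineage had the most members that were high in library 8. Of its 18 members 11 had at least 20 UMIs over libraries 8 to 12, and 9 of these lay more than 2-fold above all of libraries 9 to 12, beside 2.35% of all genes. The count is a description and no support for the label, since Trh, Th, Scgn and Pax6 reached 20 UMIs mainly through library 8. They included Meis2, Tshz1, Etv1, Pax6, Scgn, Th, Synpr and Trh. The summed level of the group was 7202 CPM in library 8 and 898 to 1448 CPM in libraries 9 to 12. Etv1 was at 384 CPM against 13.2 to 89.1, and Pax6, a paired homeobox factor, at 166 against 0 to 33.4. Scgn, a calcium-binding protein, was at 153 CPM against 0 to 44.6. The group was compiled with earlier results on these cells known, and it contains both markers.

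General inhibitory genes did not set library 8 apart: none of the 8 measured pan-GABAergic members was above or below all the other libraries by more than 2-fold. Gad1, which makes GABA from glutamate, was at 2171 CPM in library 8 and at 639, 1493, 686 and 798 in libraries 9 to 12, and Slc32a1, the vesicular GABA transporter, was at 314 against 277 to 457. The counts of each list stand beside 2.35% of all genes above and 5.87% below. Measured genes are those passing the UMI minimum given above for the lateral eminence group. Penk, Arc and Pvalb passed it mainly through library 8, with 71, 28 and 30 UMIs there. None of libraries 9 to 12 had more than 5 UMIs of any of them. The counts above that rest on these genes are therefore a description only. Sst and Lhx6, which mark the medial eminence lineage, were both at 0 in library 8. In libraries 9 to 12 Sst was at 20.6, 11.1, 4277 and 908 CPM. Lhx6 was no different there, with 1 UMI over libraries 9 to 11 and 0 in library 12. Of 5 measured genes of that lineage 1 was above (Pvalb) and 1 below (Maf). Of 12 measured caudal eminence genes 1 was above (Calb2, 655 CPM against 0 to 290.4) and 3 below (Reln, Id2 and Cck). Of 5 measured striatal projection neuron genes 1 was above (Penk), and the dopamine receptors Drd1a and Drd2 and the adenosine receptor Adora2a were at 0. Such zeros did not set library 8 apart. Of the 18 striatal genes with counts, 8 were at 0 in library 8 and 6, 8, 8 and 7 in libraries 9 to 12. For immature neurons, 2 of 11 were above (Dcx and Marcksl1) and 2 below (Tmsb10 and Gap43). Dcx, a microtubule-associated protein of migrating neurons, was found in 63.8% of library 8 cells and in 41.6% of the other P60 cells, and in 32.8% and 13.0% after thinning. For potassium channels 1 of 8 was above (Kcnd2), and for immediate early genes Arc was above and Junb below among 10. For neuropeptides and their receptors 1 of 4 was above (Penk), and for pan-neuronal genes 2 of 5 were below (Stmn2 and Thy1). None of 7 ionotropic glutamate receptor subunits, 5 heat shock genes, 4 astrocyte genes, 3 oligodendrocyte genes and 1 septal gene was on either side, and too few UMIs were present for any oligodendrocyte precursor or microglial gene.

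Glutamatergic and vascular transcripts were lower in library 8. Of 4 measured glutamatergic genes 3 (Slc17a7, Neurod6 and Nrgn) were more than 2-fold below all of libraries 9 to 12, beside 5.87% of all genes, with a summed level of 279.5 CPM against 802 to 1909. Of 7 vascular genes 4 (Flt1, Cldn5, Ly6c1 and Rgs5) were below, beside the same 5.87%, with a summed level of 703 CPM against 1641 to 3617. Flt1, a defining endothelial gene, was at 0 in library 8. The other inhibitory neurons of library 8 were also lower than those of the other P60 libraries. Their summed levels were 194 against 367 CPM for glutamatergic genes and 879.7 against 1052 CPM for vascular genes. The part of these transcripts in the differences between libraries was not tested.

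The library 8 cells were themselves mixed. A group of 9 cells had at least 5 Trh UMIs, with a median of 35 and a highest value of 56 per cell. All 9 had Th, with 3 to 12 UMIs per cell, and 8 of 9 had Pax6, 8 had Lgr5 and 8 had Sall3. In the same 9 cells Calb2 and Tshz1 were at 0, and Pcp4 came to 11 UMIs in all. A further 7 cells had at least 5 Calb2 UMIs, with 8 to 53 per cell, and 6 of the 7 had Pcp4. No cell met both thresholds, but 4 of these 7 cells had Trh, with up to 4 UMIs, and 4 had Th, with up to 11. With a threshold of 3 Th UMIs in place of the Trh one, 14 cells passed, of which 2 also had at least 5 Calb2 UMIs and 6 at least 5 Pcp4 UMIs. The remaining 42 cells held 1 Trh UMI in all, and 40 of them had Pcp4, with a median of 30.5 UMIs per cell and a highest of 107. In these 42, Gpsm1 was found in 35 cells, Rasl11b in 32, Penk in 27 and Tshz1 in 26, whereas the Trh-rich cells had Gpsm1 in 2 of 9 and Rasl11b in 1 of 9. Meis2 was shared by all 3 sets, in 9 of 9, 6 of 7 and 41 of 42 cells. All 54 Gal UMIs fell in 3 of the Trh-rich cells, and 46 of them in 1 cell. The thresholds were set after the values were seen, so the sets are a description.

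**Figure D4:**
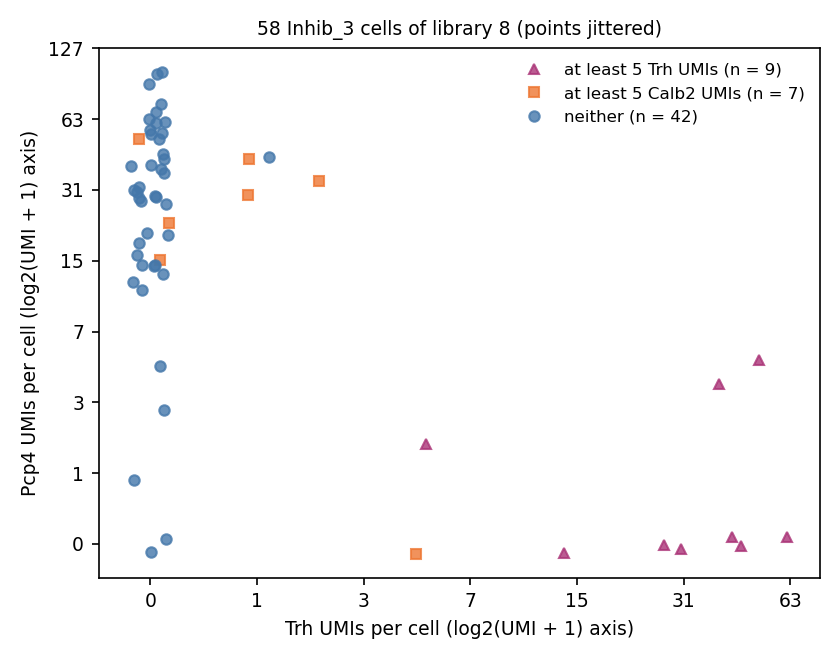
Trh UMIs (horizontal) against Pcp4 UMIs (vertical) in each of the 58 Inhib_3 cells of library 8, both on log2(UMI + 1) axes with points jittered, and with symbols for the 3 sets. The 9 Trh-rich cells lie at the lower right with 0 to 5 Pcp4 UMIs, and most of the 42 cells of neither set lie at the upper left.

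Several of these genes were also found in another cluster of library 8. Of its 40 Inhib_7 cells, 13 had at least 3 Meis2 UMIs. These 13, which were chosen by Meis2, had it at 2614 CPM, and also Rasl11b at 1702, Pcp4 at 4492, Th at 684, Crhbp at 1158 and the muscarinic receptor Chrm2 at 632. The other 27 Inhib_7 cells had Meis2 at 0, Rasl11b at 26.8, Pcp4 at 42.0, Th at 3.82 and Chrm2 at 3.82 CPM. Other genes of the library 8 Inhib_3 cells were low in the 13 cells, with Trh, Gal and Sall3 at 17.5 CPM from 1 UMI each, Pbx3 at 35.1 CPM against 175 in Inhib_3, and Pvalb and 4930523C07Rik at 0. Trh was seen outside Inhib_3 too, though in few cells: 18 of 962 other inhibitory neurons of the other P60 libraries and 261 of 13519 excitatory neurons had a UMI.

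MEIS proteins are known to bind the letters TGACAG. The promoters of the genes highest in library 8 were searched for TGACAG on both strands. The windows were the 300 bases around the start of each gene from RefSeq, build GRCm38.p6, which is not the build of the counts. Of the 20 genes 16 had windows, and 5 of their 23 windows held the motif (21.7%), near the 19.2% of all 32851 windows (6300 of them). The pair below shows one promoter with it and one without, from Pcp4l1 with 2 matches at chr1:171196219-171196518 and from Trh with none at chr6:92244601-92244900, both on the minus strand and printed 5′ to 3′ with matches in capitals.
Pcp4l1: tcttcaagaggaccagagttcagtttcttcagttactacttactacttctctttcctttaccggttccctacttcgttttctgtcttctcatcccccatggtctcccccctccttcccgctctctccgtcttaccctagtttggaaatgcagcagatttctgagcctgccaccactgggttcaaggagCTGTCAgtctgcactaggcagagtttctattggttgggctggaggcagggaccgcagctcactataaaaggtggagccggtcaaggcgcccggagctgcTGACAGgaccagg
Trh: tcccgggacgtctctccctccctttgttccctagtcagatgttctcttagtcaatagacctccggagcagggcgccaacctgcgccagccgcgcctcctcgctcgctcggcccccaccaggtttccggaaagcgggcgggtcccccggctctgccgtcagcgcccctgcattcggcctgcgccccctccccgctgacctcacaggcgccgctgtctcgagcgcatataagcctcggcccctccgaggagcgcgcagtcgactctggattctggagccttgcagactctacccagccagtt
A match shows that the letters are present and is not evidence of binding.

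Outside library 8, the 77 P60 Inhib_3 cells had a different profile. Their gene with the largest ratio to any other inhibitory cluster was Nov, at 264 CPM and 3.74-fold above Inhib_9, the next cluster, with library 8 left out of both. Nov was found in 33 of the 77 cells (42.9%), and in 41.7% of excitatory neurons of the same libraries, against 3.44% of their endothelial cells. Mgp, a matrix protein abundant in vascular cells, was 3.01-fold above the next cluster, with 23 of its 29 UMIs in library 12. Enpp2 was at 414 CPM, 2.34-fold above the next cluster, and Camk2d, Tiam2 and Kif17 were 1.84-, 1.79- and 1.79-fold above. At least 1 UMI of Cck was found in 67 of the 77 cells (3424 CPM) and of Npy, neuropeptide Y, in 59 (3393 CPM), and 20 or more UMIs in 17 and 22 cells. In the endothelial cells of the same libraries, at a median of 4472 UMIs per cell against 6582 in the 77, a Cck UMI was found in 14.3% and an Npy UMI in 7.82%. In their excitatory neurons, at a median of 13465 UMIs, the shares were 89.3% and 17.2%. Neither gene was highest in the 77 cells, with Cck at 12663 CPM in Inhib_11 and Npy at 29556 in Inhib_7 over all P60 libraries. Sst and Vip came from few cells: 82.7% of the 463 Sst UMIs and 83.2% of the 208 Vip UMIs were in 3 cells each. Of the 20 leading genes without library 8, 4 were also among the 20 leading genes over all P60 libraries, and of the 20 leading genes of library 8, 8 were.

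Transcripts of inhibitory and excitatory neurons occurred together in many of these 77 cells. A UMI of Gad1 or Gad2 and one of Slc17a7 (the vesicular glutamate transporter) or Neurod6 were both present in 35 of 77 (45.5%). The share was 63.6% in library 12, 6.90% in library 8 and 21.9% in the other P60 inhibitory neurons. Among other clusters, Inhib_8 had 45.8%. The 12 cells of another class had Gad1 at 183 CPM and Slc17a7 at 289.9, and the 65 cells of the inhibitory class had 1369 and 94.0. With those 12 cells left out the share with both was 40.0%. Their part in the profile of the 77 cells was not tested.

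In correlations of whole profiles, library 8 had a value close to that of library 11, from 257776 summed Inhib_3 UMIs against 85513. Over 3493 genes, Pearson's r of log2(CPM + 1) between the library 8 Inhib_3 cells and the pooled Inhib_3 cells of the other libraries was 0.809, and between 0.700 and 0.785 with the other clusters. For libraries 9, 10, 11 and 12 the value with the Inhib_3 cells of other libraries except library 8 was 0.893, 0.856, 0.814 and 0.891. Libraries 9, 10 and 12 had 161981, 100586 and 164136 summed UMIs. With the single libraries 9, 10, 11 and 12, library 8 had r of 0.751, 0.736, 0.734 and 0.775, below its 0.785 with Inhib_9. This was not particular to library 8. Libraries 11 and 12 had r of 0.795 and 0.872 with Inhib_8, above their highest values with a single library (0.786 and 0.844). In libraries 9 and 10 the highest value with a single library (0.844 and 0.832) was slightly above that with any other cluster (0.843 and 0.823). These correlations are across genes, which are not independent replicates, and the pooled profiles differ in depth. The part of depth in them was not tested.

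To ask whether Inhib_3 genes changed with age, UMIs were summed per library and the 3 P21 libraries (8, 1 and 3 cells) were compared with saline libraries 11 and 12 (9 and 33 cells) by edgeR's quasi-likelihood test with Benjamini-Hochberg adjustment. The saline mice had also gone through catheter surgery, self-administration of saline and withdrawal, whereas the P21 mice had no such phase. Age and procedure therefore cannot be told apart in this contrast or in the interaction below. Of 1104 genes tested, 11 passed an adjusted p of 0.05 and a 1.5-fold change (0.996%), 5 higher (0.453%) and 6 lower (0.543%) at P21. Meis2 was at 211, 1484 and 0 CPM in the P21 libraries and at 79.2 and 68.8 in libraries 11 and 12, so the groups overlapped. Its log2 difference was 1.66 (SE 0.84) with an adjusted p = 0.712. Rbp4, a retinol carrier, had the smallest p: 1222, 0 and 0 CPM at P21 against 211 and 6.88, a log2 difference of 3.30 (SE 0.51, edgeR adjusted p = 1.2e-07). All 58 of its P21 UMIs lay in 3 cells of 1 library, and the groups overlapped. Cox5a and Ndufab1, subunits of the mitochondrial respiratory chain, Atxn7l3b and Rpp25 were the other genes called higher at P21, by 1.72 to 2.53 on the log2 scale, and in each of these 4 genes the P21 and P60 libraries overlapped. Cox5a, for example, was at 1306, 0 and 563 CPM at P21 against 158 and 351. The groups thus overlapped in all 5 genes called higher. However, a single UMI equalled 495 CPM in P21 library 2 and 188 CPM in P21 library 3. A level of 0 in these libraries can therefore reflect depth, also where the groups are said to overlap or not. The genes called lower at P21 included Ly6a and Ly6c1, both at 0 in every P21 library and known from vascular cells, and Adrm1 and Rbm3, whose groups did not overlap. Hbb-b1, a haemoglobin chain of red blood cells, was also called lower, but was at 274, 495 and 188 CPM at P21 against 92.4 in library 11 and 1934 in library 12, so that only library 12 lay above the P21 libraries. Its levels in P21 libraries 2 and 3 came from 1 UMI each. For Ly6a the P60 levels were 422 and 282 CPM, and for Ly6c1 211 and 220. Of the gene groups used here only the vascular one held a gene that changed, Ly6c1. Without library 11, 5 genes were called higher and 0 lower (44 genes at an unadjusted p under 0.05). Leaving out P21 library 1 or P21 library 2 left 0 genes (100 and 92 at an unadjusted p under 0.05), and DESeq2 called 0 (8 at an unadjusted p under 0.05, and 76 in edgeR).

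Whether such a change differed between Inhib_3 and the other inhibitory clusters was tested as an interaction of cluster and age with library as a block. Of 7989 genes 3 passed (0.0376%), all lower, among them Lgals1, the lectin galectin-1, and Tac1, the precursor of substance P. Lgals1 and Tac1 were at 0 in all 3 P21 Inhib_3 sums, which come from 12 cells. In libraries 11 and 12 Tac1 was at 568 and 0 CPM, and Lgals1 at 515 and 27.5 CPM. A single cell held 72.1% of the 43 Tac1 UMIs in library 11, and a single cell held 71.8% of its 39 Lgals1 UMIs. No gene passed when library 11 was left out, 1 passed without library 12 and 47 passed without P21 library 1. Of the gene groups, 3 each held 1 of these genes: medial eminence (10 tested), striatal (9 tested) and oligodendrocyte (6 tested). In the medial eminence and striatal groups this was Tac1. The Meis2 interaction was 3.07 on the log2 scale (SE 0.73) with an edgeR adjusted p = 0.0566, resting on 13 P21 UMIs. Meis2 is a marker of the cluster, and the P21 cells were named by their likeness to the adult clusters. The Meis2 value is therefore a description and no independent evidence of an age change. The median of all genes was -0.48 in this contrast.

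For cocaine against saline, the test used the 5 P60 libraries with at least 5 cells and a term for phase. Since library 8 was alone in its phase, its values were taken up by that term, and the contrast rested on libraries 9 and 10 (cocaine) and 11 and 12 (saline), all at 15 days of withdrawal. Of 3153 genes 6 passed (0.190%), 2 higher (0.0634%) and 4 lower (0.127%) after cocaine. Meis2 was at 48.1 and 111 CPM after cocaine and at 79.2 and 68.8 after saline, with overlap and a log2 difference of -0.04 (SE 0.48, edgeR adjusted p = 0.989). Pbx3 differed by 0.61 (SE 0.54, edgeR adjusted p = 0.854).

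The genes that passed included markers of particular neurons. Vip was at 536 and 1393 CPM in libraries 9 and 10 and at 0 and 34.4 in libraries 11 and 12, a log2 difference of 5.27 (SE 0.67, edgeR adjusted p = 0.00648). Sst was at 20.6 and 11.1 CPM against 4277 and 908, a difference of -7.18 (SE 0.84, edgeR adjusted p = 0.00571). A single cell held 60.8% of the Sst UMIs in library 11, and a single cell held 93.9% in library 12. Mbp, a myelin protein, and Ptgds, a prostaglandin D synthase, fell, by 3.06 and 3.54 on the log2 scale. Yjefn3 rose by 2.35. For Vip a single cell held 62.8% of the UMIs in library 9 and 75.2% in library 10. For Ptgds it was 81.8% in library 11 and 20.7% in library 12. For Yjefn3 it was 27.3% in library 9 and 92.5% in library 10, and for Mbp 39.1% in library 11 and 13.2% in library 12. The cocaine and saline libraries at 15 days did not overlap in these 5 genes, but library 8, also from cocaine mice, had Yjefn3 at 8.73 CPM, below both saline libraries. By list, 1 of 3 tested medial eminence genes (Sst), 1 of 9 caudal eminence genes (Vip) and 2 of 3 oligodendrocyte genes passed, beside 0.190% of all genes. The count was 3 when library 8 was left out and 0 when library 9 or library 10 was left out. It was 50 without library 11 and 54 without library 12. Nothing labels the 2 mice of a library, so these p-values measure the spread between pooled libraries.

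**Figure D5:**
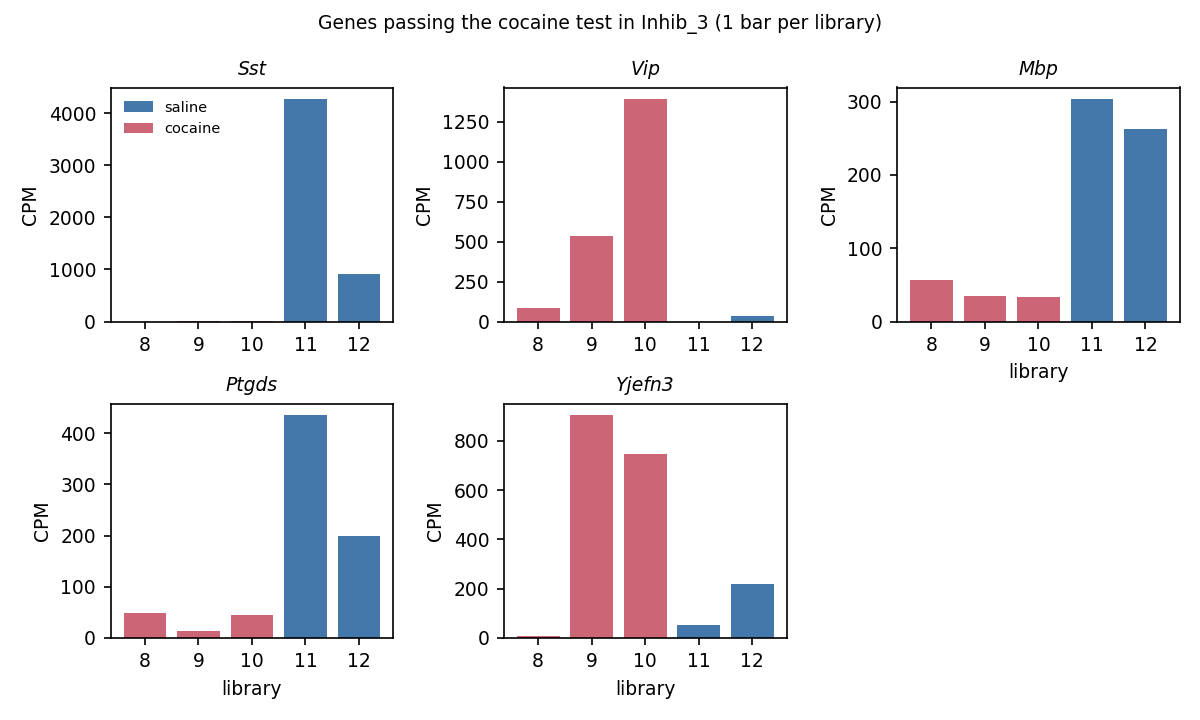
Level of Sst, Vip, Mbp, Ptgds and Yjefn3, which passed the cocaine test, in the Inhib_3 cells of libraries 8 to 12, 1 bar per library in CPM on linear axes, with cocaine and saline libraries in different colours. Sst is at 4277 and 908 CPM in the saline libraries 11 and 12 and at 20.6 and 11.1 in the cocaine libraries 9 and 10, and Vip shows the opposite order.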

How the data were processed

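Single cells of mouse PFC were captured in droplets, with 12 P60 and 3 P21 libraries. The authors aligned the reads to mm9 with Cell Ranger and deposited UMI counts of each gene as whole numbers, with a table of cells that gives cluster, class and each cell's mitochondrial fraction as a fraction from 0 to 1. The authors removed cells by mitochondrial share, required a minimum of detected genes for neurons, removed suspected doublets by high gene number and by hand, aligned saline and cocaine cells by canonical correlation and clustered them with Seurat 2.1.0. No further doublet caller was run here, and the cells and cluster names were used as given. The retained cells of a library summed to 8375172 to 42892922 UMIs.

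Levels are CPM with 13 mitochondrial and 85 ribosomal protein genes left out of the total. Intervals are exact (95%, Clopper-Pearson for shares and Poisson for UMIs). A level at or under 3 UMIs was set to that floor for folds. Rankings and 2-fold counts used the floor of the library or cluster with the highest level, and folds given as at least a value used the highest floor. Shares were repeated with cells thinned to 2000 UMIs (seed 1), leaving out shallower cells, which removed 0 of 58 library 8 cells and 2 of 12 P21 cells. For endothelial and excitatory cells 150 sampled cells were thinned. Tests summed UMIs over the Inhib_3 cells of each library with at least 5 cells (all 3 P21 libraries were kept) and used edgeR 4.0.16 (R 4.3.3) with TMM scaling, filterByExpr and the quasi-likelihood test, checked on simulated counts. DESeq2 1.42.0 was an alternative. Changes needed an adjusted p of 0.05 and a 1.5-fold change. Cluster against cluster was not tested, since the same genes made the clusters.

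Named genes were members of 22 gene lists, the 10 called genes with the largest rise and fall in each test, and the 20 genes of each ranking with at least 20 UMIs (Inhib_3 against the highest other cluster, with and without library 8, library 8 against libraries 9, 10 and 12, and cells with at least 3 Meis2 UMIs against those with none). The members and lists were chosen with earlier results of these data known. Thresholds on Trh, Calb2 and Inhib_7 Meis2 UMIs, and some genes and ratios beyond these rules, were chosen after values were seen. Positions are from the GENCODE annotation of mm9. Some genes counted in the totals are not reported here. Symbols shared by several genes are told apart by identifier.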

Additional observations from a re-analysis of the deposited data

Results flagged for a closer look

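Among the 6 cocaine libraries, the share of inhibitory neurons in Inhib_3 was 38.2% in library 8, and its gap to the next library was 0.782 of the whole range, above Dixon's critical value of 0.625. In the 6 saline libraries the highest share, 22.9% in library 12, had a gap of 0.563 of the range and did not pass. The high share of library 8 was known when the cells were chosen, so this value restates it and is no independent test. Dixon's criterion picks out about 1 in 20 groups by chance.

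For Lgals1 and Tac1, the difference in the change from P60 to P21 between Inhib_3 and the other inhibitory clusters passed edgeR's interaction test. The log2 difference of the changes was -12.46 (SE 2.51, adjusted p = 0.00283) for Lgals1 and -12.91 (SE 2.60, adjusted p = 0.00283) for Tac1. Lgals1 and Tac1 were at 0 in the P21 Inhib_3 cells, so the size of their fitted differences depends on the prior count and is no bound. No gene passed this test without library 11, and 47 passed without P21 library 1. In the other inhibitory cells Lgals1 was at 478, 475 and 567 CPM at P21 and at 169 and 61.9 CPM in libraries 11 and 12. In Inhib_3 it was at 515 and 27.5 CPM in libraries 11 and 12. A single Inhib_3 cell of library 11 held 71.8% of the Lgals1 UMIs there, and a single cell held 72.1% of the Tac1 UMIs.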

How the results depend on the processing

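The counts of changed genes rested on few cells and moved with most settings. The age comparison gave 11 genes, and 1 with no filter on low counts, 0 with DESeq2, 0 with all P60 libraries of at least 5 cells, 0 with those libraries except library 8, and 3 without cells of another class. Leaving out 1 library in turn gave 0 to 9, with 5 without library 11, none of them lower at P21, and 0 without P21 library 1 or P21 library 2. The cocaine comparison gave 6 genes, and 34 with no filter, 50 with libraries of at least 10 cells, 1 with no phase term and 2 without cells of another class. Leaving out 1 library in turn gave 0 to 54, with 3 without library 8, 0 without library 9 or 10, 50 without library 11 and 54 without library 12; where a single library of an arm was left, it was assumed to vary like the others. The interaction gave 3 genes, 8 with DESeq2 size factors and 7 with all P60 libraries. Leaving out 1 library in turn gave 0 to 47, with 0 without library 11, 1 without library 12, 47 without P21 library 1 and 5 without P21 library 2. With DESeq2 size factors the age count was 10 and the cocaine count 6, and DESeq2 gave 5 for cocaine. The cause of these moves was not tested. The setting of at least 10 cells was not run for age and interaction, since no P21 library has 10 cells.

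The share of library 8 among P60 Inhib_3 cells was 43.0% over all cells, 62.0% over cells with a UMI of Meis2 or Pbx3 and 46.3% without cells of another class. The Meis2 level was 594 CPM pooled, 545 as a mean over libraries, 60.1 without library 8 and 529 with mitochondrial and ribosomal protein genes in the total. Pbx3 gave 106, 93.4, 79.0 and 94.4. With the floor of 3 UMIs taken in the shallowest of libraries 9 to 12, in place of the library with the highest level, 100 genes lay above in library 8 and 305 below. Without cells of another class, library 11 or library 12, the genes above in library 8 numbered 123, 157 and 142, and those below 249, 344 and 324. The settings on the floor, on cells of another class, and those leaving out library 11 or 12 from these counts, were chosen after seeing the data. No paired analysis was possible because a replicate number only names a library within its group and marks no shared animals or day, and the P21 and P60 groups come from different mice. Depth limits genes under 20 UMIs, P21 cells and the 7 P60 libraries with at most 4 cells.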
